A study of Mus musculus with 12 samples.

Results

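Genes of GABA and glycine signalling were followed in the prefrontal cortex and striatum of a mouse model of attention-deficit/hyperactivity disorder (ADHD) made with 6-hydroxydopamine (6-OHDA), a toxin that enters and kills catecholamine neurons. A list of 29 gene symbols was used, chosen by name: 5 genes of GABA synthesis, vesicle loading and breakdown, 11 GABAA receptor subunits, 2 GABAB receptor subunits, 4 glycine receptor subunits, 3 membrane transporters, 2 proteins of the inhibitory synapse and 2 chloride cotransporters. All 29 were among the 21872 symbols of the deposited count table. The neuronal glycine transporter Slc6a5 held only 0 or whole multiples of 11 in every library, with no count above 33, and was left out with all other rows of that kind, and the remaining 28 passed the filter on low counts, among 14545 genes tested. The series has 12 bulk RNA-seq libraries from brain of C57BL/6J mice at postnatal day 24, 3 in each of 4 groups. These were control prefrontal cortex, 6-OHDA prefrontal cortex, control striatum and 6-OHDA striatum. The labels call the treated mice ADHD and the others CTL, and name no transgene or mutation. How much 6-OHDA was given, by which route and at which age, and what the controls received, was not found in the labels. Nor do the labels tie the 3 libraries of a group to different animals, and each p-value therefore reflects the variation among libraries, which may be technical.

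GABA is made from glutamate by the 2 glutamate decarboxylases, packed into vesicles by a transporter that it shares with glycine, and cleared by membrane transporters and mitochondrial enzymes. It opens GABAA receptors, which are chloride channels built of 5 subunits, and activates GABAB receptors, which act through G proteins; glycine opens a related chloride channel. The direction of chloride flow depends on cotransporters that bring chloride in or take it out. In the striatum most neurons are themselves GABAergic projection neurons, whereas in the cortex GABA neurons are a minority among glutamatergic cells.

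Several of these genes lie side by side in the genome, and the starts of those that the regional and 6-OHDA comparisons turn on are printed here so that neighbours that differed in level can be compared. On chromosome 5 the order was Gabrg1, Gabra2, Gabra4 and Gabrb1. Gabra4 and Gabrb1 point away from each other, and their 5′ ends overlap: the RefSeq start of Gabrb1 lies 387 bases from that of Gabra4, inside the region that Gabra4 transcribes the other way. In GENCODE they share 46 exon bases on opposite strands, so reads there may not be told apart. On the X chromosome the order was Gabre, Gabra3 and Gabrq, with 382 kb between the starts of the first pair and 168 kb between those of the second. Each line gives 300 bases, 250 before and 50 after a transcription start, from RefSeq on GRCm38.p6 (the assembly also called mm10), read 5′ to 3′ on the strand of the gene, with CpG dinucleotides in capitals.
Gabrg1 (chr5:70842568-70842867, minus strand): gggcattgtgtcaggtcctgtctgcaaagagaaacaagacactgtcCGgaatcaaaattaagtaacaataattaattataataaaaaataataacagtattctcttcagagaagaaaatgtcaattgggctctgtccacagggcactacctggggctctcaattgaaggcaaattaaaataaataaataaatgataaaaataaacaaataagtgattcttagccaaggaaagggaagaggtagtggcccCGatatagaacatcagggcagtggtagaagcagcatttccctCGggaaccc
Gabra4 (chr5:71658259-71658558, minus strand): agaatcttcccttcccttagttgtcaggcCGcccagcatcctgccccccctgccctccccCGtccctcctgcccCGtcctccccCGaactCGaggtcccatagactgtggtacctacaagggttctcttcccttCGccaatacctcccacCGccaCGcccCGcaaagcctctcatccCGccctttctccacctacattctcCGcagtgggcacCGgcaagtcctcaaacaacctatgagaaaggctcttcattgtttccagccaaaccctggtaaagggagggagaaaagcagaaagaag
Gabrb1 (chr5:71657671-71657970, plus strand): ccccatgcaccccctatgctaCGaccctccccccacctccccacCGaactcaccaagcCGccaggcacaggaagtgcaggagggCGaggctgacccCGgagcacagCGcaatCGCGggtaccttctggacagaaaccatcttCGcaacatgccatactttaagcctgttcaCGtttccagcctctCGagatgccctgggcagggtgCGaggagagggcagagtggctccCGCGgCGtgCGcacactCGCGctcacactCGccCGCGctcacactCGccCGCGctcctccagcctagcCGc
Gabre (chrX:72274672-72274971, minus strand): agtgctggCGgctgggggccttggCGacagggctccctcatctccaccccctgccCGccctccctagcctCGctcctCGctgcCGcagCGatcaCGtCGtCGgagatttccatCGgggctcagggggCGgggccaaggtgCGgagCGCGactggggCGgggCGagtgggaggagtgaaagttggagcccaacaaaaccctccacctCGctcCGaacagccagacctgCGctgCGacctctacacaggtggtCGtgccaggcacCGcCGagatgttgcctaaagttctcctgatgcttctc
Gabra3 (chrX:72656870-72657169, minus strand): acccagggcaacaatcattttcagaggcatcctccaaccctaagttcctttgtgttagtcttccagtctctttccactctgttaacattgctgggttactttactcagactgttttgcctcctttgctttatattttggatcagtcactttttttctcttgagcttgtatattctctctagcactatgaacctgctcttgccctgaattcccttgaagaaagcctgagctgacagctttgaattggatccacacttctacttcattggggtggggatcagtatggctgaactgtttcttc
Gabrq (chrX:72824928-72825227, plus strand): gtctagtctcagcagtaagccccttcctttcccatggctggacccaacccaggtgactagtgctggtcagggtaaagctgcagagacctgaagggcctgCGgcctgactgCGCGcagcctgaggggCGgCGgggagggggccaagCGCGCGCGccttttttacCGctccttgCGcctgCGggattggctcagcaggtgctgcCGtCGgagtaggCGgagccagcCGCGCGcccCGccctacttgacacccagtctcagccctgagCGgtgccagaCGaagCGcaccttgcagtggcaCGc
Slc12a5 upstream start (chr2:164960596-164960895, plus strand): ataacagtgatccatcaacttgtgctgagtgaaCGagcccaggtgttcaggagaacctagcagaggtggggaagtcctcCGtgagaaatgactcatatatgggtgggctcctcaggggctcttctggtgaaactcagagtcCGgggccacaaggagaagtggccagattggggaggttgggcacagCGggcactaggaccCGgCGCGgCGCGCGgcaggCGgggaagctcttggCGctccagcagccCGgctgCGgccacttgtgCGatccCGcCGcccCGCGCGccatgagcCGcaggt
Slc12a5 downstream start (chr2:164967738-164968037, plus strand): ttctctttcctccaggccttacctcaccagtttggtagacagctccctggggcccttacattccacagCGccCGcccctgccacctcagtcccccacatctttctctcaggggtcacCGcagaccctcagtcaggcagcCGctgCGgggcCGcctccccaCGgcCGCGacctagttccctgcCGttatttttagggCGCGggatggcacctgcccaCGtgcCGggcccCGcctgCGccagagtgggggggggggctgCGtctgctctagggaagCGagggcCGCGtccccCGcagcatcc

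The windows of neighbouring genes had unlike CpG content. Gabra3 held 0 CpG dinucleotides, while its neighbours Gabre and Gabrq held 24 and 23. On chromosome 5, Gabrg1 held 3, Gabra2 (not printed) held 25 and Gabra4 held 12. Gabrb1 held 25 in the window of its first start and 9 in that of its second, not printed. Both starts of Slc12a5 held 21. The median over all 32851 RefSeq mouse windows of this length was 7. A GC box (GGGCGG, either strand) is in 35.7% of all windows and was found 3 times at Gabre, 2 times at Gabrq, 2 times at Gabra4, 1 time at each Slc12a5 start and 0 times at Gabra3, Gabrg1 and Gabrb1. A TATAAA motif (either strand), in 13.6% of all windows, was found among the 8 printed windows only at Gabra3. CpG count and motif matches are descriptions of the letters. RefSeq windows were matched for 25 of the 29 genes.

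Libraries held 15078631 to 20925452 counts in all. Levels are given as CPM, counts per 1000000 counts of a library after scaling by TMM factors, and 3 counts correspond to 0.148 to 0.204 CPM. A pair of striatal libraries stood apart in summed markers of cell types and bordering tissue. Library 1 of the 6-OHDA striatum had the highest summed level of 15 markers of striatal projection neurons, 14672.7 CPM, against 5943.7 and 8576.7 CPM in the other libraries of its group and 3087.6 to 4741.0 CPM in control striatum. Library 2 of control striatum had 1058.6 CPM of 11 markers of cortical excitatory neurons, against 113.9 to 341.3 CPM in the other 5 striatal libraries, and 2134.1 CPM of choroid plexus and ependyma markers, against 49.7 to 97.9 CPM. Prefrontal cortex libraries held 2946.1 to 3197.0 CPM of the cortical markers and 970.4 to 1779.3 CPM of the striatal ones, and 14 of the 15 striatal markers were called higher in control striatum than in control prefrontal cortex. The striatal libraries also held markers of hypothalamus and bordering tissue, and their sum is described with Gabre and Gabrq. Among them, Pmch had 286 counts in library 2 of 6-OHDA striatum, against 1 to 15 in the other striatal libraries. Regional values without the 2 libraries that stood apart are given together for the called genes, and 6-OHDA effects in striatum without them are given beside each gene whose value or call they moved.

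Between regions, the genes that make, load and break down GABA were all higher in striatum. In the 6 control libraries, 16 of the 28 genes were called higher in striatum and 7 lower (edgeR quasi-likelihood test, Benjamini-Hochberg adjusted p below 0.05 over all tested genes), against 41.8% of all genes called in either direction, 21% higher and 20.8% lower. After 6-OHDA, 15 were called higher and 6 lower, against 44.5% of all genes, 22.2% higher and 22.3% lower. The median absolute log2 fold change of the 28 was 0.75 in controls, against 0.27 over all tested genes, and 0.74 against 0.30 after 6-OHDA. Of the 28, 18 had the same call in both comparisons, 14 higher and 4 lower in striatum, 5 were called in controls alone, 3 after 6-OHDA alone and 2 in neither. Without library 1 of 6-OHDA striatum and library 2 of control striatum, 17 were called higher and 8 lower in each comparison, against 46.8% of all genes called in controls and 52.9% after 6-OHDA. All 23 genes called in controls and all 21 called after 6-OHDA were called in the same direction without them. In bulk tissue, fewer cells of a type and less RNA per cell cannot be told apart.

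**Figure D1:**
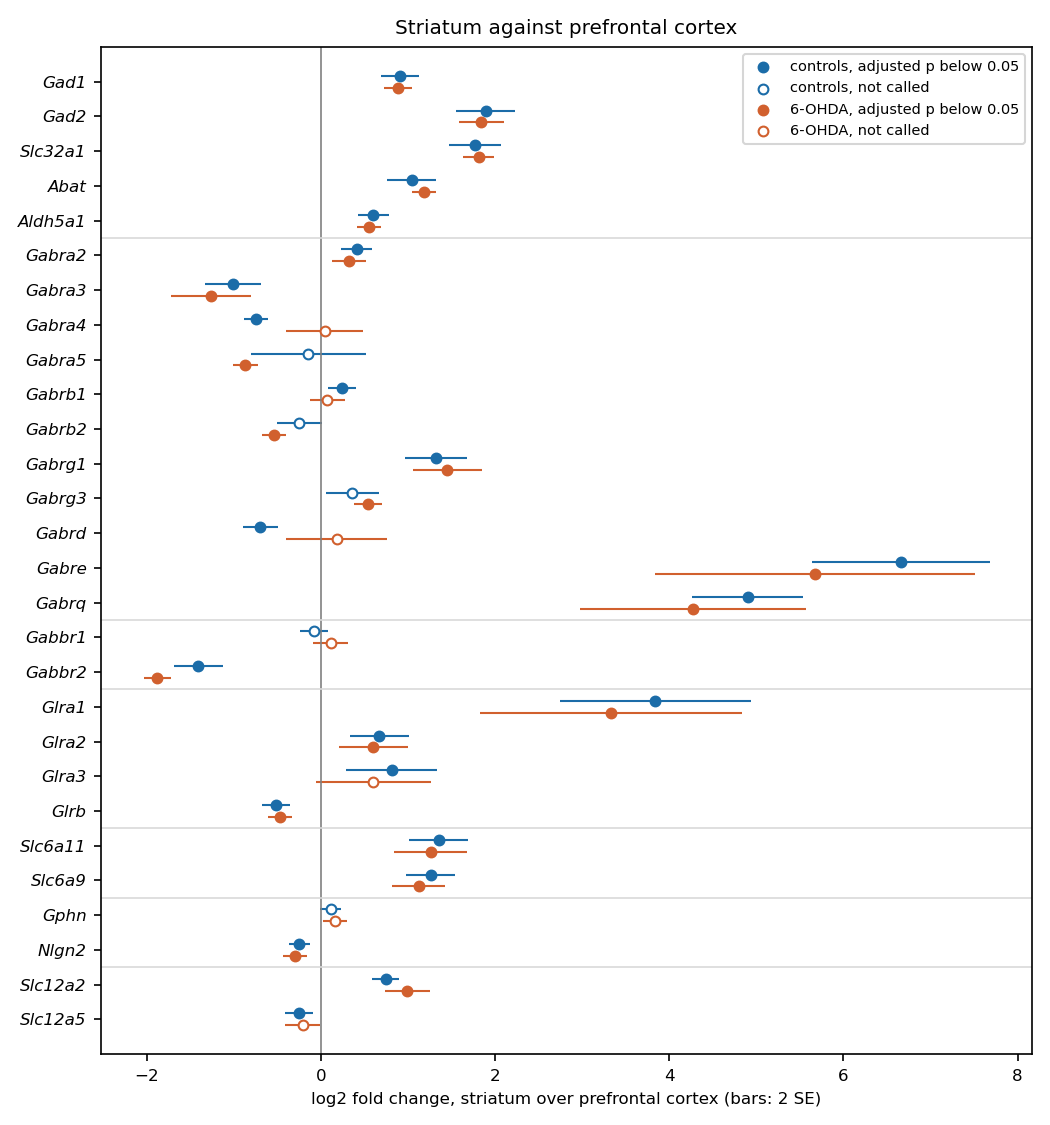
Log2 fold change of striatum over prefrontal cortex (horizontal axis) for the 28 tested genes, grouped by role, in controls (blue) and after 6-OHDA (orange). Bars are 2 SE, filled points passed the adjusted threshold and open points did not. The 5 genes of GABA synthesis, loading and breakdown lie to the right of 0 in both comparisons, and Gabre, Gabrq and Glra1 lie farthest to the right.

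Gad2 encodes GAD65, the glutamate decarboxylase associated with nerve terminals. Its level was 188, 209 and 200 CPM in control prefrontal cortex, 186, 195 and 210 CPM in 6-OHDA prefrontal cortex, 900, 540 and 769 CPM in control striatum, and 569, 740 and 812 CPM in 6-OHDA striatum. Every striatal library lay above every cortical one. The log2 fold change between regions was 1.89 (SE 0.17, edgeR adjusted p = 8.18e-05) in controls and 1.84 (SE 0.13, adjusted p = 5.12e-05) after 6-OHDA.

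Gad1 encodes GAD67, the decarboxylase found through the whole cell body. Its 3 libraries read 359, 332 and 334 CPM in control prefrontal cortex, 369, 384 and 388 CPM in 6-OHDA prefrontal cortex, 710, 525 and 686 CPM in control striatum, and 637, 705 and 759 CPM in 6-OHDA striatum. The regional difference was smaller than that of Gad2, at a log2 fold change of 0.91 (SE 0.11) in controls and 0.88 (SE 0.08) after 6-OHDA. Per kilobase of exon, the ratio of Gad2 to Gad1 was 0.76 ± 0.07 (SD, n = 3) in the cortex of controls and 1.48 ± 0.16 in their striatum, and 0.67 ± 0.03 and 1.31 ± 0.13 after 6-OHDA. All 3 striatal ratios exceeded all 3 cortical ratios in each condition. The exact two-sided permutation p was 0.1 in each, the smallest that 3 against 3 libraries can give, and 0.2 after adjustment over the 8 ratio comparisons made.

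Slc32a1, the vesicular transporter that loads GABA and glycine, was also higher in striatum. It read 74.9, 80.2 and 95.6 CPM in control prefrontal cortex and 87.6, 86.0 and 86.1 CPM in 6-OHDA prefrontal cortex. In striatum it read 321, 220 and 311 CPM in controls and 307, 268 and 336 CPM after 6-OHDA. The log2 fold changes between regions were 1.77 (SE 0.15) and 1.81 (SE 0.09), and the groups did not overlap. An annotated antisense gene covers 24.9% of its exon bases on the other strand, and the strand setting of the counting is unknown. Abat, the transaminase that begins GABA breakdown, was at 340 ± 7.03 CPM in control prefrontal cortex and 697 ± 144 CPM in control striatum (SD, n = 3; 1.04 on the log2 scale, SE 0.14). Aldh5a1, the dehydrogenase that follows it, was at 117 ± 4.09 and 177 ± 20.5 CPM (log2 fold change 0.60, SE 0.09), with 14.1% of its exon bases under an antisense gene. Over the 12 libraries the genes whose log2 CPM followed Slc32a1 most closely were Chat, Slc5a7, Dchs2, Rpn2 and Tacr3 (Pearson r 0.993 to 0.994). Those closest to Gad1 were Pdxk, Usp11, Rtl5, Rbms3 and Tmem132e (r 0.985 to 0.989). These values describe libraries of 2 regions, so any gene with a similar regional difference scores high.

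The membrane transporters that glia carry were higher in striatum as well. Slc6a11 encodes GAT3, the GABA transporter of astrocytes. It read 179, 152 and 146 CPM in control prefrontal cortex, 141, 155 and 143 CPM in 6-OHDA prefrontal cortex, 483, 301 and 436 CPM in control striatum, and 229, 436 and 389 CPM in 6-OHDA striatum. Its log2 fold change between regions was 1.35 (SE 0.17) in controls and 1.26 (SE 0.21) after 6-OHDA, with no overlap between regions. Slc6a9, the glycine transporter GlyT1, had 31.9 ± 3.95 CPM in control prefrontal cortex and 76.6 ± 12.5 CPM in control striatum (log2 fold change 1.26, SE 0.14). Exons of Ccdc24 on the other strand cover 27.8% of its exon bases. Of 10 astrocyte markers 3 were called higher and 2 lower in control striatum, with sums of 5040.8 to 5195.7 CPM against 5882.9 to 6291.7 CPM in control prefrontal cortex.

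Among GABAA receptor subunits the regional differences ran in both directions. In controls 5 of 11 were called higher and 3 lower in striatum, and after 6-OHDA again 5 and 3. The ε and θ subunits Gabre and Gabrq, known from hypothalamus and other deep nuclei, had the largest differences of the 28 genes in both comparisons. Gabre had 2, 6 and 0 counts in control prefrontal cortex and 2, 7 and 4 in 6-OHDA prefrontal cortex, near or below the 3-count level. In striatum it read 21.6, 11.2 and 17.4 CPM in controls and 2.76, 20.4 and 15.9 CPM after 6-OHDA. Its fitted log2 fold change of 6.66 (SE 0.51) in controls rests on those few cortical counts.

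Gabrq read 1.33, 0.963 and 1.57 CPM in control prefrontal cortex, 1.68, 1.57 and 1.51 CPM in 6-OHDA prefrontal cortex, 50.7, 25.1 and 40.0 CPM in control striatum, and 8.66, 47.4 and 35.9 CPM in 6-OHDA striatum. Its log2 fold change between regions was 4.90 (SE 0.32) in controls and 4.27 (SE 0.65) after 6-OHDA. The lowest striatal library for both genes was library 1 of the 6-OHDA group. Gabra3, the α3 subunit, lies between these genes on the X chromosome and went the other way. It read 216, 223 and 191 CPM in control prefrontal cortex, 206, 207 and 220 CPM in 6-OHDA prefrontal cortex, 115, 76.4 and 121 CPM in control striatum, and 55.1, 113 and 95.9 CPM in 6-OHDA striatum. The log2 fold change was -1.01 (SE 0.16, adjusted p = 0.00139 by edgeR) in controls and -1.26 (SE 0.23) after 6-OHDA.

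The summed markers of hypothalamus and bordering tissue moved with Gabre and Gabrq between the striatal libraries. Of 14 such markers 10 were tested, and 8 of these were called higher in control striatum than in control prefrontal cortex, and none lower. Their summed level was 592.2, 321.3 and 501 CPM in control striatum and 163.7, 536.1 and 488.3 CPM in 6-OHDA striatum, against 13.1 to 18.4 CPM in prefrontal cortex. Hcrt, Oxt and Sim1 gave no usable row, and Pmch, Avp and Nkx2-1 were at 0 in at least 1 library. Library 1 of 6-OHDA striatum was lowest in this sum and in both subunits. Among the striatal libraries it also had the fewest counts of Dlk1, Gpr101 and Prlr. Not every marker followed. In libraries 1, 2 and 3 of 6-OHDA striatum Agrp had 22, 14 and 13 counts, and Pmch had 2, 286 and 1. The part of this tissue in the regional difference was not tested.

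Gabrg1, the γ1 subunit, known from glia and a limited set of neurons, read 27.5, 30.6 and 28.6 CPM in control prefrontal cortex and 90.2, 51.7 and 74.2 CPM in control striatum. The log2 fold change was 1.32 (SE 0.18), and 1.45 (SE 0.20) after 6-OHDA. Gabra2, the α2 subunit that is common at striatal synapses, read 69.1, 65.5 and 61.5 CPM in control prefrontal cortex, 65.1, 76.0 and 63.3 CPM in 6-OHDA prefrontal cortex, 86.4, 96.5 and 78.1 CPM in control striatum, and 89.4, 76.5 and 88.7 CPM in 6-OHDA striatum. Its log2 fold change was 0.41 (SE 0.09, adjusted p = 0.00633 by edgeR) in controls, and 0.32 (SE 0.10, adjusted p = 0.0289) after 6-OHDA. Gabrb1, the β1 subunit, was only just past the threshold in controls at 0.24 (SE 0.08, adjusted p = 0.0484) and was not called after 6-OHDA (0.07, SE 0.10). Gabrb2 and Gabrg3, the β2 and γ3 subunits, were called after 6-OHDA alone. Gabrb2 had a log2 fold change of -0.54 (SE 0.07) there and -0.25 (SE 0.13) in controls. Gabrg3 had 0.54 (SE 0.08) there and 0.36 (SE 0.15) in controls, where it passed the threshold without library 2 of control striatum (0.52, adjusted p = 0.000373). With all libraries it was also called in controls by DESeq2 (0.35, adjusted p = 0.048) and by an edgeR fit of all 12 libraries (0.36, adjusted p = 0.0486).

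Gabra4 and Gabrd encode the α4 and δ subunits, which assemble together into extrasynaptic receptors that carry tonic inhibition. In controls both were lower in striatum, with a fitted -0.75 on the log2 scale for Gabra4 (SE 0.07, edgeR adjusted p = 9.29e-05) and -0.70 for Gabrd (SE 0.10, adjusted p = 0.00079). After 6-OHDA neither passed the threshold, at 0.04 (SE 0.22) and 0.18 (SE 0.29). Without library 1 of 6-OHDA striatum both values turned negative. That of Gabra4 was -0.29 and passed the threshold (adjusted p = 0.00379), and that of Gabrd was -0.26 (adjusted p = 0.0542). Gabra5, the α5 subunit, also extrasynaptic, was not called in controls (-0.15, SE 0.33) and was lower in striatum after 6-OHDA (-0.87, SE 0.07, adjusted p = 8.49e-05). Without library 2 of control striatum its value in controls was -0.76 (adjusted p = 7.34e-06).

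**Figure D2:**
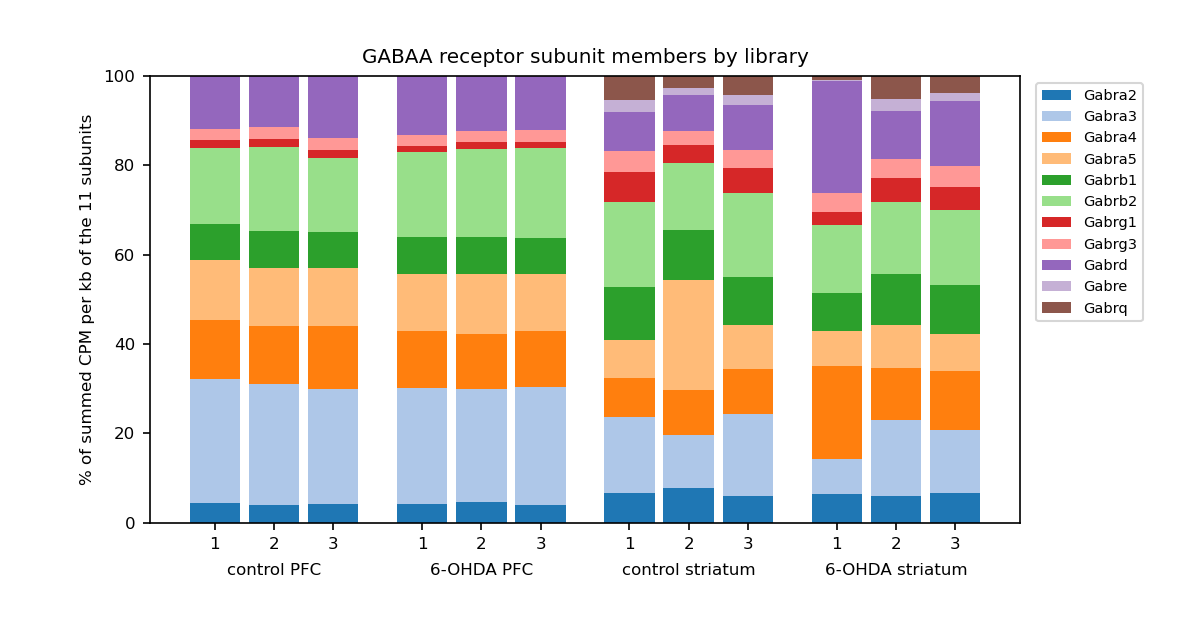
Share of each of the 11 GABAA receptor subunit genes (vertical axis, % of their summed CPM per kilobase of exon) in each of the 12 libraries, numbered within their groups. Gabra3 takes 25.2 to 27.6% in prefrontal cortex and 7.79 to 18.3% in striatum, and Gabrd and Gabra4 take their largest shares, 25.0% and 20.8%, in library 1 of 6-OHDA striatum.

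Shares per kilobase put these subunits on a common scale; subunits outside the list are not in the sum. Gabra3 was the largest in control prefrontal cortex with 26.7 ± 0.94% (SD, n = 3), followed by Gabrb2 with 17.5 ± 1.10%. In control striatum Gabrb2 had 17.5 ± 2.29% and Gabra3 15.8 ± 3.37%, a difference within their spread. Gabrq and Gabre together were under 0.2% in each cortical library, and Gabrq alone reached 5.53% in library 1 of control striatum.

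GABAB receptors need both of their subunits at the cell surface, and these behaved differently between regions. Gabbr1, which binds GABA, read 851, 886 and 835 CPM in control prefrontal cortex, 834, 843 and 854 CPM in 6-OHDA prefrontal cortex, 862, 733 and 837 CPM in control striatum, and 1035.9, 797 and 897 CPM in 6-OHDA striatum. The groups overlapped and neither regional comparison passed the threshold (log2 fold change -0.08, SE 0.08, in controls). Gabbr2, which couples to the G protein, read 532, 598 and 560 CPM in control prefrontal cortex, 561, 605 and 599 CPM in 6-OHDA prefrontal cortex, 176, 263 and 197 CPM in control striatum, and 150, 171 and 159 CPM in 6-OHDA striatum. It had the largest fall of the 28 genes between regions, -1.41 (SE 0.14) in controls and -1.88 (SE 0.08) after 6-OHDA. Per kilobase of exon Gabbr1 was at 110 ± 3.39 and Gabbr2 at 84.2 ± 4.92 CPM per kb in control prefrontal cortex, and at 104 ± 8.77 and 31.7 ± 6.81 in control striatum.

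Glycine receptors are chloride channels of α subunits and the β subunit Glrb, which binds the scaffold protein gephyrin. Glrb read 259, 277 and 243 CPM in control prefrontal cortex, 264, 264 and 279 CPM in 6-OHDA prefrontal cortex, 188, 167 and 190 CPM in control striatum, and 188, 204 and 191 CPM in 6-OHDA striatum. It was lower in striatum (-0.52, SE 0.08, in controls; -0.47, SE 0.07, after 6-OHDA), whereas the α subunits had values above 0. Glra2, the α2 subunit known from the developing brain, read 21.9, 28.6 and 24.2 CPM in control prefrontal cortex, 25.4, 24.5 and 25.0 CPM in 6-OHDA prefrontal cortex, 43.3, 29.9 and 45.8 CPM in control striatum, and 25.0, 42.0 and 46.4 CPM in 6-OHDA striatum. The difference was 0.67 (SE 0.17, edgeR adjusted p = 0.0122) in controls and 0.60 (SE 0.20, adjusted p = 0.0452) after 6-OHDA, where library 1 lay within the cortical range.

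Glra3, the α3 glycine receptor subunit, read 11.95, 15.3 and 11.2 CPM in control prefrontal cortex, 13.1, 12.4 and 12.5 CPM in 6-OHDA prefrontal cortex, 26.5, 13.3 and 27.4 CPM in control striatum, and 8.90, 24.9 and 23.8 CPM in 6-OHDA striatum. Its call in controls (0.81, SE 0.26, adjusted p = 0.0363 by edgeR) came with an overlap between the groups, since library 2 of control striatum lay within the cortical range. Glra1, the α1 subunit of spinal cord and brainstem, had at most 7 counts in each cortical library and 4.08, 1.73 and 3.91 CPM in control striatum and 0.737, 4.82 and 3.86 CPM in 6-OHDA striatum. As for Gabre and Gabrq, library 1 of 6-OHDA striatum was the lowest of the striatal libraries for Glra1, Glra2, Glra3 and Slc6a11. It was also the lowest in the summed hypothalamus and border markers given above. What that tissue contributed to these genes was not tested.

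At the inhibitory synapse, gephyrin (Gphn), the scaffold that anchors glycine receptors and many GABAA receptors, read 76.6, 82.0 and 77.4 CPM in control prefrontal cortex, 76.7, 81.2 and 78.8 CPM in 6-OHDA prefrontal cortex, 85.7, 84.1 and 84.9 CPM in control striatum, and 94.7, 80.6 and 88.3 CPM in 6-OHDA striatum. The control groups did not overlap, but the log2 fold change of 0.11 (SE 0.06) missed the threshold (edgeR adjusted p = 0.152). Nlgn2, the adhesion protein of inhibitory synapses, was lower in striatum at 280 ± 11.2 CPM against 332 ± 7.58 CPM (-0.25, SE 0.06, adjusted p = 0.0122).

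Slc12a5 encodes KCC2, which takes chloride out of mature neurons, and Slc12a2 encodes NKCC1, which brings chloride in and is also found in glia and choroid plexus. Slc12a2 was higher in striatum, with 79.2, 88.4 and 99.5 CPM in control prefrontal cortex and 149, 150 and 149 CPM in control striatum (0.74, SE 0.08, adjusted p = 0.000246 by edgeR). Slc12a5 was lower in control striatum, with 608, 510 and 609 CPM against 691, 686 and 675 CPM (-0.25, SE 0.08, adjusted p = 0.0379). Per kilobase the ratio of Slc12a5 to Slc12a2 was 12.8, 11.4 and 9.95 in the cortex of controls and 5.99, 5.01 and 6.01 in their striatum. After 6-OHDA it was 11.6, 14.2 and 12.3 in prefrontal cortex and 6.16, 3.94 and 6.85 in striatum. All striatal ratios lay below all cortical ones (exact two-sided permutation p = 0.1 in each condition, adjusted p = 0.2).

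Regional values were also computed without both striatal libraries that stood apart, and are given here as log2 fold changes, in controls first and then after 6-OHDA. The genes of GABA synthesis, loading and breakdown ran from 0.69 (Aldh5a1) to 2.07 (Gad2) and from 0.57 to 1.98, with Gad1 at 1.03 and 0.95 and Slc32a1 at 1.92 and 1.81. The transporters Slc6a11 and Slc6a9 were at 1.53 and 1.39 in controls, and both were called after 6-OHDA as well (adjusted p = 2.72e-08 and 5.9e-06 by edgeR). Among GABAA receptor subunits, Gabre was at 6.88 and 6.15, Gabrq at 5.13 and 4.71, Gabrg1 at 1.51 and 1.67, Gabra2 at 0.33 and 0.28, Gabrb1 at 0.26 and 0.18, and Gabrg3 at 0.52 and 0.53. Gabra3 was at -0.83 in controls and was called lower after 6-OHDA too (adjusted p = 1.44e-06). Gabra4 and Gabrd had -0.77 and -0.61 in controls, Gabra5 had -0.76 in controls and -0.83 after 6-OHDA, and Gabrb2 had -0.52 after 6-OHDA. Each of these values had the sign that it had with all libraries. After 6-OHDA the value of Gabra4 did not keep its sign, at 0.04 with all libraries and -0.29 without both. That of Gabrd turned negative without library 1 of 6-OHDA striatum, as given above. Of the other receptor genes, Gabbr2 was at -1.60 and -1.83, Glrb at -0.46 and -0.44, Glra1 at 4.14 and 3.80, Glra2 at 0.84 and 0.83, and Glra3 at 1.07 and 0.95. Nlgn2 was at -0.22 and -0.33, Slc12a2 at 0.74 and 1.03, and Slc12a5 at -0.17 and -0.27.

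Some regional calls rested on the setting. In controls Gabrb1, Glra3 and Slc12a5 each lost their call when all 12 libraries were fitted together (adjusted p = 0.0619, 0.0705 and 0.0515), and Nlgn2 lost it without library 1 of control prefrontal cortex (adjusted p = 0.0573). Single libraries also ended calls: Gabrb1 without library 1 or 3 of either control group (adjusted p = 0.0718 to 0.159), Glra3 without any of the 3 cortical controls or library 1 or 3 of control striatum (0.0581 to 0.117), and Slc12a5 without any of the 3 cortical controls (0.0847 to 0.111). After 6-OHDA the call of Gabra2 was lost without library 1 or 3 of prefrontal cortex or library 3 of striatum (adjusted p = 0.0954 to 0.109), that of Glra2 without any of the 3 cortical libraries or library 2 or 3 of striatum (0.0994 to 0.15), and that of Nlgn2 without library 2 of prefrontal cortex (0.0648). Without library 1 of 6-OHDA striatum, Glra3 (0.95, adjusted p = 7.89e-06), Gabrb1 (0.18, adjusted p = 0.0156) and Slc12a5 (-0.27, adjusted p = 0.0127) passed the threshold, and without library 2 of that group Gphn did (0.21, adjusted p = 0.0348). The GC content and length correction ended the calls of Gabrb1 (0.11, adjusted p = 0.211) and Slc12a5 (adjusted p = 0.0504) in controls and those of Gabra2 (adjusted p = 0.0687) and Glra2 (adjusted p = 0.0557) after 6-OHDA. Gabrb1 in controls also missed the threshold with RLE size factors (adjusted p = 0.0535). With the rows of multiples of 11 kept, Glra3 in controls (adjusted p = 0.0517) and Glra2 after 6-OHDA (adjusted p = 0.0563) missed it. A block for the replicate number ended the calls of Gabrb1 (adjusted p = 0.0589) and Glra3 (adjusted p = 0.0807) in controls and of Gabra2 after 6-OHDA (adjusted p = 0.0605).

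In prefrontal cortex 6-OHDA was followed by changes in 2 of the 28 genes, 1 in each direction. Slc12a5 (KCC2) rose and Gabrg1 (γ1) fell. Over all genes 5.58% were called, 3.68% (535) higher and 1.9% (277) lower. With a correction for GC content and length the calls were 336 higher and 326 lower. The log2 fold changes of the 28 had a median of 0.04 against 0.01 over all genes, and a median absolute value of 0.06 against 0.10.

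**Figure D3:**
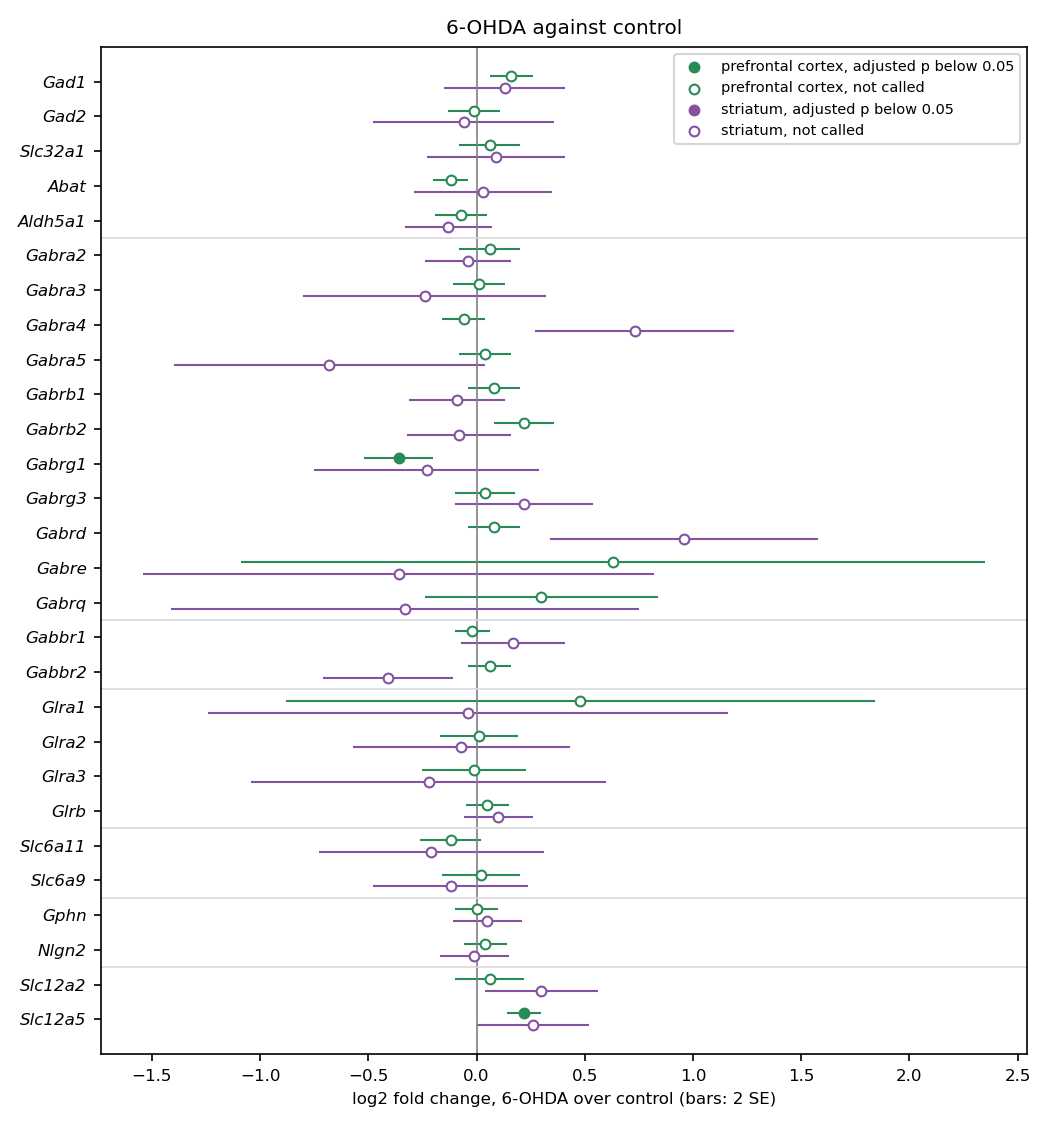
Log2 fold change of 6-OHDA over control (horizontal axis) for the 28 tested genes, in prefrontal cortex (green) and striatum (purple). Bars are 2 SE, and filled points passed the adjusted threshold. Filled points appear at Slc12a5 and Gabrg1 in prefrontal cortex and nowhere in striatum, where the bars are wider.

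Slc12a5 read 691, 686 and 675 CPM in control prefrontal cortex and 778, 817 and 789 CPM after 6-OHDA. All 3 treated libraries lay above all 3 controls. The rise was 0.22 on the log2 scale (SE 0.04, fold 1.16, edgeR adjusted p = 0.00884). It kept its size but not its call when the 12 libraries were fitted together (0.22, adjusted p = 0.428), and was 0.17 (adjusted p = 0.0614) after the GC content and length correction and 0.20 (adjusted p = 0.082) without library 2 of the 6-OHDA group. In striatum the same gene read 608, 510 and 609 CPM in controls and 747, 588 and 727 CPM after 6-OHDA, with overlap (0.26, SE 0.13, adjusted p = 0.336). Of the 11 cortical excitatory markers 2 were called higher and none lower in prefrontal cortex after 6-OHDA, and their sums overlapped, at 2946.1 to 3116.1 CPM against 2973.4 to 3197.0 CPM in controls. The effects on Slc12a5 in the 2 regions differed by 0.04 (SE 0.13, adjusted p = 0.934). The ratio of Slc12a5 to Slc12a2 per kilobase was 11.4 ± 1.43 in control and 12.7 ± 1.33 in 6-OHDA prefrontal cortex (SD, n = 3; exact permutation p = 0.4, adjusted p = 0.457). Slc12a2 itself read 98.5, 84.6 and 94.1 CPM after 6-OHDA and overlapped its controls.

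Gabrg1 read 27.5, 30.6 and 28.6 CPM in control prefrontal cortex and 21.3, 22.9 and 23.3 CPM after 6-OHDA. Each treated library lay below each control. The change was -0.36 on the log2 scale (SE 0.08, fold 0.78, edgeR adjusted p = 0.0149). With all 12 libraries in the fit the adjusted p was 0.615, and it was 0.0783 without library 1 and 0.0653 without library 2 of the 6-OHDA group. In striatum Gabrg1 read 90.2, 51.7 and 74.2 CPM in controls and 41.1, 72.5 and 70.1 CPM after 6-OHDA, with overlap (-0.23, SE 0.26). Astrocyte markers moved with Gabrg1 in prefrontal cortex. Of 10 tested, 5 were called lower and none higher after 6-OHDA, and none was at 0. Their summed level was 5882.9 to 6291.7 CPM in controls and 5326.8 to 5492.3 CPM after 6-OHDA, and its part in the fall of Gabrg1 was not tested. Endothelial markers moved in the same direction, with 2 of 5 called lower and none higher, none at 0, and sums of 203.5 to 223.2 CPM in controls and 184.4 to 194.4 CPM after 6-OHDA. Their part was not tested. The astrocyte transporter Slc6a11 was at -0.12 on the log2 scale (SE 0.07, adjusted p = 0.357) in the same libraries, with overlap.

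Further genes had groups apart in prefrontal cortex without passing the adjusted threshold. Groups did not overlap for 5 of the 28 genes, 2 higher and 3 lower, against 24.9% of all genes, 14% higher and 10.9% lower. Besides Slc12a5 and Gabrg1 these were Gad1, Abat and Gabra4. Gad1 was at 0.16 on the log2 scale (SE 0.05, edgeR adjusted p = 0.0753), with 369 to 388 CPM after 6-OHDA against 332 to 359 CPM. Abat had 308 to 319 CPM after 6-OHDA against 332 to 345 CPM. Gabra4 had 156.5, 154.8 and 160.8 CPM after 6-OHDA against 161, 169.2 and 161.5 CPM, at -0.06 (SE 0.05, adjusted p = 0.555). Gabrb2 overlapped between groups, at 0.22 (SE 0.07, adjusted p = 0.098), and passed the threshold without library 2 of the controls (0.31, adjusted p = 0.00423). Leaving aside Gabre, Gabrq and Glra1, which had few cortical counts, the 23 other genes without a call had log2 fold changes of -0.12 to 0.22.

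In striatum none of the 28 genes was called after 6-OHDA, where 0.0413% of all genes were. At an unadjusted p below 0.05 there were 4, Gabra4, Gabrd, Gabbr2 and Slc12a2, which is 14.3% of the 28 against 17.2% of all genes. DESeq2 called 1, Gabrd, or 3.57% against 3.59% of all genes. The smallest adjusted p by edgeR was 0.214. Groups did not overlap for 4 genes, 3 higher and 1 lower, against 25.7% of all genes, 13% higher and 12.7% lower. The median absolute log2 fold change of the 28 was 0.15, as over all genes, and the spread between striatal libraries was larger, with a biological coefficient of variation of 15.01% against 5.84% in prefrontal cortex.

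**Figure D4:**
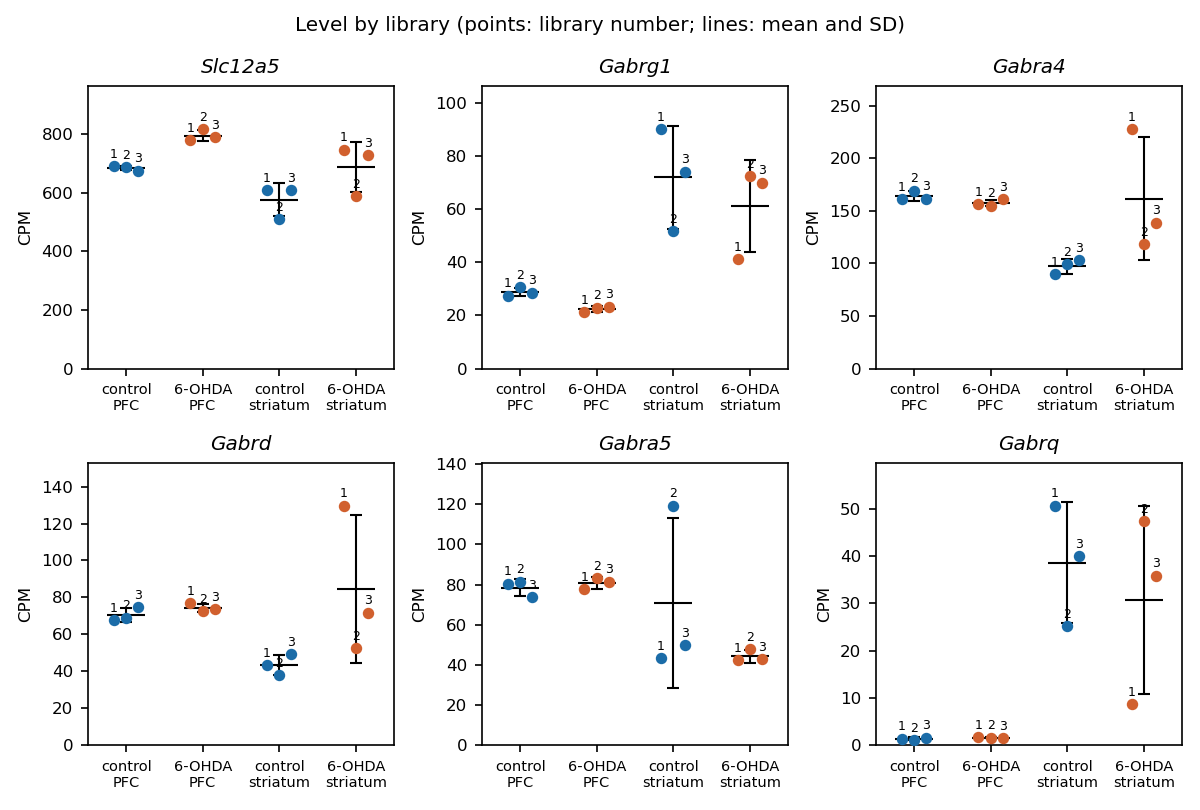
Level in CPM (vertical axis, from 0) of Slc12a5, Gabrg1, Gabra4, Gabrd, Gabra5 and Gabrq in the 12 libraries, with the library number beside each point and lines for the mean and SD (n = 3). Slc12a5 and Gabrg1 groups are apart in prefrontal cortex, library 1 of 6-OHDA striatum is highest for Gabra4 (228 CPM) and Gabrd (130 CPM) and lowest in striatum for Gabrq, and library 2 of control striatum is highest for Gabra5 (119 CPM).

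Gabra4 read 89.5, 99.5 and 103 CPM in control striatum and 228, 118 and 139 CPM after 6-OHDA, so that every treated library was higher. The log2 fold change was 0.73 (SE 0.23, edgeR adjusted p = 0.214). Its partner Gabrd read 43.2, 38.0 and 49.1 CPM in controls and 130, 52.4 and 71.7 CPM after 6-OHDA, with the same order (0.96 on the log2 scale, SE 0.31, adjusted p = 0.218). Without library 1 of 6-OHDA striatum the values were 0.39 and 0.51, and without it and library 2 of control striatum they were 0.41 and 0.42. A fit of all 12 libraries called both (adjusted p = 0.0357 and 0.0387), and DESeq2 called Gabrd (adjusted p = 0.0431). In prefrontal cortex Gabrd read 67.7, 69.0 and 74.8 CPM in controls and 76.7, 72.6 and 73.6 CPM after 6-OHDA, with overlap.

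The summed markers of striatal projection neurons were also higher in every 6-OHDA striatal library than in every control one. Of the 15 markers none was called in striatum, none was at 0 in any library, and their median log2 fold change was 1.27. Their summed level was 4370.7, 3087.6 and 4741.0 CPM in control striatum and 14672.7, 5943.7 and 8576.7 CPM after 6-OHDA. The 3 treated libraries have the same order for this sum, Gabra4 and Gabrd. In controls Gabrd kept the order of the sum, but Gabra4 did not. Library 2 of the controls, lowest in the sum, had 99.5 CPM of Gabra4 against 89.5 CPM in library 1. Between control regions 14 of the 15 markers were called higher in striatum, where Gabra4 and Gabrd were lower (-0.75 and -0.70). What the share of these neurons contributed to the 2 genes was not tested. The vesicular transporter Slc32a1 and the decarboxylases did not follow the marker sum in the treated libraries. Library 1 of 6-OHDA striatum, with the highest marker sum, had the lowest Gad1 and Gad2 of its group.

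**Figure D5:**
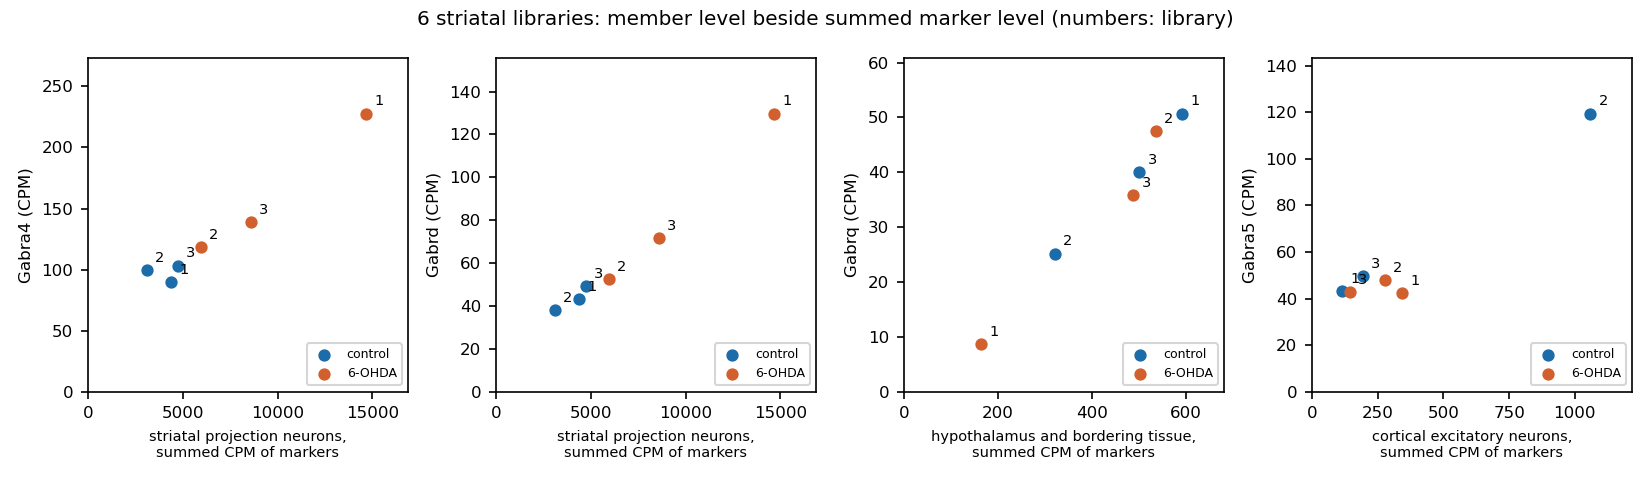
Level of a gene (vertical axis, CPM) against the summed CPM of a marker list (horizontal axis) in the 6 striatal libraries, controls in blue and 6-OHDA in orange, numbered by library. Gabra4 and Gabrd are highest where the striatal projection neuron sum is 14672.7 CPM, Gabrq is lowest where the hypothalamus and border sum is 163.7 CPM, and Gabra5 is highest where the cortical sum is 1058.6 CPM.

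Gabra5 and Gabbr2 had the most negative striatal values. Gabra5 read 43.2, 119 and 49.7 CPM in control striatum and 42.2, 47.9 and 42.7 CPM after 6-OHDA, and its fitted value of -0.68 on the log2 scale (SE 0.36, edgeR adjusted p = 0.371) became -0.07 without library 2 of control striatum. In prefrontal cortex it read 80.5, 81.4 and 73.6 CPM in controls and 77.7, 83.1 and 81.5 CPM after 6-OHDA. Gabbr2 had groups apart in striatum, at -0.41 (SE 0.15, adjusted p = 0.247), and -0.22 without that library. The summed cortical excitatory markers were 113.9, 1058.6 and 193 CPM in the 3 control striatal libraries, and Gabra5 and Gabbr2 both had their highest striatal level in the library with the highest sum. Of the 11 cortical markers none was called in striatum and none was at 0. Their part in these values was not tested. Slc12a2 had 178, 219 and 156 CPM in 6-OHDA striatum, all above the controls at 149 to 150 CPM (0.30, SE 0.13, adjusted p = 0.277).

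None of the 28 genes was called for a difference between the 6-OHDA effects of the 2 regions, where 0.0825% of all genes were. By unadjusted p 3 were below 0.05, or 10.7% against 11.7% of all genes, DESeq2 called 0, and the smallest edgeR adjusted p was 0.316, for Gabra4. The effect on Gabra4 was 0.79 higher in striatum than in prefrontal cortex (SE 0.25), that on Gabrd 0.88 higher (SE 0.34, adjusted p = 0.368), and that on Gabbr2 lower, at -0.47 (SE 0.17, adjusted p = 0.347). Gabra4 passed the threshold without library 2 of 6-OHDA striatum (0.97, adjusted p = 0.0488), and without both libraries that stood apart (0.48, adjusted p = 0.0495).

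Per kilobase of exon, different genes led in the 2 regions. In control prefrontal cortex the highest were Gabbr1 at 110 ± 3.39 CPM per kb (SD, n = 3), Slc12a5 at 91.9 ± 1.14, Gabbr2 at 84.2 ± 4.92, Nlgn2 at 57.4 ± 1.31 and Glrb at 55.8 ± 3.61, of which Nlgn2 and Glrb were within their spread. In control striatum the highest were Gad2 at 125 ± 31.0, Gabbr1 at 104 ± 8.77, Slc32a1 at 102 ± 19.8, Abat at 90.0 ± 18.5 and Gad1 at 83.8 ± 13.2, each within the spread of the next. Gabre, Glra1 and Gabrq were the 3 lowest in prefrontal cortex, each under 0.3 CPM per kb.

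Beyond the 28, a further 60 genes of the pathway in 4 lists were all tested. Between regions in controls 15 were called higher and 22 lower in striatum, where 41.8% of all genes were called, and after 6-OHDA 11 and 19, where 44.5% were. Against controls, 2 of the 60 rose and 1 fell in 6-OHDA prefrontal cortex, where 5.58% of all genes were called. Kctd16, an auxiliary subunit of GABAB receptors, was called higher, with 56.0 ± 0.68 CPM after 6-OHDA and 44.1 ± 5.18 CPM in controls (SD, n = 3; 0.35 on the log2 scale, SE 0.07, edgeR adjusted p = 0.0151). Wnk1, a kinase that regulates KCC2 and NKCC1, was at 282 ± 5.76 CPM after 6-OHDA and 246 ± 10.9 CPM in controls (0.20, SE 0.05, adjusted p = 0.0297), and Trak2, an adaptor for GABAA receptor and mitochondrial traffic, was called lower, with 332 ± 4.51 against 399 ± 20.7 CPM (-0.27, SE 0.05, adjusted p = 0.00612). By list this was 1 of 11 GABAB effector and auxiliary genes, 1 of 14 chloride regulators, 1 of 18 trafficking and scaffold genes and 0 of 17 genes of transmitter supply and breakdown. With all 12 libraries in the fit none of the 3 kept its call. Trak2 lost its call without library 2 of 6-OHDA prefrontal cortex (adjusted p = 0.0589), Kctd16 without library 2 or 3 of that group or library 1 of the controls (0.0545 to 0.083), and Wnk1 without any of the 3 libraries of that group or library 1 of the controls (0.103 to 0.137). Wnk1 was at 0.08 (adjusted p = 0.438) after the GC content and length correction. With the rows of multiples of 11 kept it was at 0.19 and missed the threshold (edgeR adjusted p = 0.0528). In striatum 0 of 60 were called, and the smallest adjusted p were those of Slc6a13 (GAT2, a GABA and taurine transporter known from the meninges; -1.49, SE 0.19, adjusted p = 0.077), Slc6a12 (the betaine and GABA transporter; -3.25, SE 0.49, adjusted p = 0.0988) and Slc38a2 (a glutamine transporter; -0.50, SE 0.12, adjusted p = 0.174). Of the pathway genes named here, DESeq2 called Slc6a13, Slc6a12 and Wnk1 in striatum (adjusted p = 3.89e-07, 0.0027 and 0.0402), and so did the fit of all 12 libraries (0.00226, 0.00258 and 0.023). Without both striatal libraries that stood apart, Slc6a13 was called there as well (-1.29, adjusted p = 0.0366). Slc6a12 was at 0.117 ± 0.06 CPM in 6-OHDA striatum, below the level of 3 counts, so its fitted fold is uncertain. Slc6a13 was the only gene of the 60 called for a difference between the effects of the regions. It was at 7.71 ± 0.92 CPM in control and 2.74 ± 0.50 CPM in 6-OHDA striatum, against 7.81 ± 1.02 and 8.86 ± 1.45 CPM in prefrontal cortex (difference -1.67, SE 0.24, adjusted p = 0.0378). Its call was lost without any 1 of the 6 prefrontal cortex libraries or without library 1 or 2 of control striatum (adjusted p = 0.0618 to 0.12), with voom (0.101), with the replicate block (0.0638) and with the rows of multiples of 11 kept (0.0602). It held without both striatal libraries that stood apart (-1.46, adjusted p = 0.0227). Markers of choroid plexus and ependyma summed to 75.87 to 2134.1 CPM in control striatum and 49.73 to 64.53 CPM in 6-OHDA striatum. None of these 8 was called in striatum, Ttr and Kcnj13 were at 0 in at least 1 library, and their part in the values of Slc6a13 was not tested.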

How the data were processed

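Bulk mRNA libraries (stranded TruSeq kit, paired-end 101-base reads, per the labels' protocols) were aligned with STAR 2.7.1a to mm10 and counted with featureCounts, per the submitters' processing notes; the authors deposited 1 table of whole-number counts per gene symbol and library. The annotation, strand setting and options of the counting were not found in the labels. From these counts, rows of zeros (3732) and rows holding only multiples of 11 (1830, 0.144% of counts) were dropped, edgeR's filterByExpr kept 14545 genes, and TMM factors were computed over 12 libraries. Each contrast of 2 groups was fitted on its 6 libraries with the edgeR 4.0.16 quasi-likelihood test in R 4.3.3, two-sided, and the difference between regions on all 12. Benjamini-Hochberg adjustment ran over all tested genes, and a call is an adjusted p below 0.05. Values in CPM are TMM-scaled, and CPM per kb divides by merged GENCODE exon length. DESeq2 1.42.0, limma 3.58.1 (voom with quality weights), RLE factors, other filters, a GC content and length correction, a replicate block and fits without each library were alternatives. Totals of 15078631 to 20925452 counts per library make 3 counts 0.148 to 0.204 CPM. The script was tested on simulated data with known changes; the share of false calls was above the nominal level in all 5 comparisons and highest between control regions. All 29 listed genes are named. Library values are given for genes called in a 6-OHDA comparison and for the 5 largest regional differences in each direction. They are also given for a set of receptor, transporter and enzyme genes. For Glra1 in prefrontal cortex an upper limit in counts is given. Of the pathway lists, the 3 genes with the smallest p in each 6-OHDA contrast are named. The genes, lists and tests were chosen with earlier results of these data known.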

Additional observations from a re-analysis of the deposited data

Results flagged for a closer look

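Gabra4, the α4 GABAA receptor subunit, had 6-OHDA libraries all below the controls in prefrontal cortex, though barely (154.8 to 160.8 CPM against 161 to 169.2 CPM). The fitted cortical change was small and not called (-0.06 on the log2 scale, SE 0.05, edgeR adjusted p = 0.555). In striatum all 6-OHDA libraries lay above the controls (118 to 228 CPM against 89.5 to 103 CPM). Gabra4 was the only 1 of the 28 genes whose groups lay apart in opposite directions in the 2 regions, 3.57% of them, against 1.26% of all tested genes. The difference between the effects was 0.79 on the log2 scale (SE 0.25) and missed the threshold (edgeR adjusted p = 0.316; from 0.0488 to 0.581 over its alternatives). It was 0.46 (adjusted p = 0.121) without library 1 of 6-OHDA striatum and 0.48 (adjusted p = 0.0495) without that library and library 2 of control striatum.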

How the results depend on the processing

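Calls of 6-OHDA effects depended on the processing more than regional calls did. In prefrontal cortex, 812 genes and 2 of the 28 were called. Fitting all 12 libraries together called 30 genes and 0 of the 28, keeping the rows of multiples of 11 called 532 genes, the GC content and length correction called 1 of the 28 (662 genes, 336 higher and 326 lower, against 535 and 277), and leaving out 1 library gave 219 to 1081 genes and 0 to 3 of the 28. In striatum, 6 genes and 0 of the 28 were called. DESeq2 called 522 genes and 1 of the 28, the 12-library fit 1040 and 2, voom with quality weights 0 genes, the table with rows of multiples of 11 0 genes, the GC content and length correction 10 genes, leaving out library 1 of 6-OHDA and library 2 of control striatum 94 genes, and leaving out 1 library 0 to 2 genes. At an unadjusted p below 0.05 voom had 2438 genes and the table with those rows 2497. For the difference between regions, 12 genes were called, with 116 by DESeq2, 0 by voom (1695 at an unadjusted p below 0.05), 5 with the rows of multiples of 11, and 101 genes and 1 of the 28 without the 2 striatal libraries. Leaving out 1 library gave 0 to 172 genes and 0 to 1 of the 28. The cause was not tested.

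With 1 library left out, each regional comparison called 19 to 25 of the 28. Directions reversed for 3 regional values that were called under some setting. Gabra5 in controls (-0.15) was 0.10 and 0.05 without library 1 or 3 of control striatum, and ran from -0.76 to 0.10 over all single libraries left out. Gabra4 after 6-OHDA (0.04) was -0.02 with voom, -0.03 with the GC content and length correction, and -0.29 without library 1 of 6-OHDA striatum, alone or with library 2 of control striatum. Over single libraries left out it ran from -0.29 to 0.22. Gabrb1 after 6-OHDA (0.07) was -0.08 with the GC content and length correction. Of genes called under no setting, 13 of 25 in prefrontal cortex, 17 of 26 in striatum 13 of 27 for the difference, 0 of 3 between control regions and 1 of 2 after 6-OHDA (Gabrd, -0.26 without library 1 of 6-OHDA striatum) changed sign under some setting, so the directions of those that did are not to be read.

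Groups share replicate numbers, and correlations of same-numbered deviations ran from -0.112 to 0.092. Between control regions they exceeded the highest other-numbered value for numbers 1 (0.082 against -0.019) and 3 (0.092 against 0.028), but not 2. After 6-OHDA they did so for numbers 1 (0.075 against -0.011) and 2 (0.036 against 0.018), but not 3. In the 6-OHDA against control comparisons only number 2 of striatum did (0.010 against 0.006). Correlations this small cannot decide whether the numbers pair the libraries. With a replicate block the calls were 713 genes in prefrontal cortex with the same 2 of the 28, 0 in striatum (2202 at an unadjusted p below 0.05), 6 for the difference, 5602 between control regions and 5904 after 6-OHDA, and Gabra4 after 6-OHDA was -0.02. The calls of Gabrb1 and Glra3 in controls and of Gabra2 after 6-OHDA were lost under the block, as was that of Slc6a13 for the difference (adjusted p = 0.0638).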
